A study of Mus musculus with 9 samples.

Results

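The 9 genes described here are the enzymes of the tricarboxylic acid (TCA) cycle Cs, Idh3a, Idh2, Ogdh, Dlst, Suclg1, Fh1 and Mdh2, and Irg1, whose product makes itaconate from a cycle intermediate. They were taken by symbol from a table of raw counts for 23413 genes, and all 9 were present. All 9 were also among the 11393 genes that passed the filter on low counts. The table holds 9 RNA-seq libraries of macrophages sorted from mouse liver as F4/80+CD11b+Gr1low cells, a gate said to hold mainly Kupffer cells (KCs), the resident macrophages of the liver. All mice were male C57BL/6 (B6) mice that went onto their diets at 5 weeks of age and stayed on them for 8 weeks. ND denotes normal chow with no injection recorded in the labels (2 libraries). Veh denotes a high-fat diet (HFD) with injections of the vehicle PEG3000 (3 libraries), and DPI denotes the HFD with diphenyleneiodonium, a compound that the study examined as an activator of the receptor GPR3, at 2 mg/kg every 5 days from week 3 in 6 doses (4 libraries). The sample labels also carry a protocol of 500 nM DPI on purified cells for 24 h, attached to all libraries including ND, and the study's design of treated mice was followed here. ND and Veh differ in the diet, and also in the injections if the ND mice had none, which was not stated. An effect of injections cannot be told apart from that of the diet in the comparison of Veh with ND. Each library is labelled as 1 mouse, and the study describes more mice per group than there are libraries here.

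The TCA cycle is the ring of mitochondrial reactions that oxidizes acetyl units and hands electrons to the respiratory chain. Citrate synthase brings acetyl units in, the isocitrate and 2-oxoglutarate dehydrogenases release carbon dioxide, and succinyl-CoA synthetase, succinate dehydrogenase, fumarase and malate dehydrogenase return the carbon skeleton to oxaloacetate. In macrophages that sense endotoxin the cycle is known to be interrupted, and the enzyme encoded by Irg1 (now Acod1) then removes cis-aconitate from it to form itaconate, which inhibits succinate dehydrogenase.

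Between 3534325 and 15585775 counts were obtained per library, of which the precursor of ribosomal RNA, Rn45s, took 27% to 44.5%. Levels are given as CPM, counts relative to the library total after TMM scaling. The limit of detection was set at 3 counts, which amounted to 0.184 to 1.02 CPM and covers counting error only. The ND libraries resembled each other less (Spearman rho over genes 0.74) than the Veh libraries (0.867 to 0.88) or the DPI libraries (0.838 to 0.887), and ND replicate 1 reached no more than 0.768 with any other library. Of the general macrophage genes, Lyz2 was at 13960 CPM or more, Csf1r at 384.6 CPM or more and Cd68 at 234.9 CPM or more in every library. Others varied more, as Emr1 had 138.7 and 114.5 CPM in ND, 54.94 to 67.2 CPM in Veh and 56.33 to 141.7 CPM in DPI. C1qa had 92.38 and 82.03 CPM in ND, 19.8 to 41.48 CPM in Veh, and 108.7, 123.8, 32.43 and 32.09 CPM in DPI. C1qb had 132.4 and 220.3 CPM in ND, 49.25 to 181.8 CPM in Veh, and 321.6, 466.7, 82.46 and 79.26 CPM in DPI. Defining KC genes were not abundant. Marco was at 0 counts in 8 of 9 libraries, Vsig4 and Timd4 reached at most 3.00 and 5.22 CPM, and Clec4f lay between 0 and 45.5 CPM. Of the 8 macrophage and KC markers that could be tested, 2 were called lower and 0 higher in Veh against ND by the study's rule given below, where 4.63% of all genes were called lower and 7.03% higher. In DPI against Veh 1 was called higher and 0 lower, beside 1.5% and 1.34% of all genes. The label of KCs is therefore not carried by these markers, and the cells are called liver macrophages below. In such bulk RNA, fewer cells of a type and less RNA per cell cannot be told apart.

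The 9 genes lie on 9 chromosomes. On GRCm38, the assembly of mm10, with GENCODE M21, Fh1 occupies chromosome 1 from 175600374 to 175625635 on the minus strand and Irg1 chromosome 14 from 103046977 to 103056573 on the plus strand. Kmo overlaps the span of Fh1 on the opposite strand but shares 0 exon bases with it, and no transcript of another gene matched a member over 200 bases at 95% identity or more. Promoters, here 250 bases before to 50 after the RefSeq start on GRCm38.p6, were found for 8 members (all but Idh3a), with the first listed start taken for Ogdh. Those of the 7 TCA cycle genes held between 14 and 28 CG dinucleotides, and that of Irg1 held 2, against a median of 7 over 27025 promoters. The TATA box letters TATAAA, searched on both strands as all motifs were, are in 14.2% of all promoters and were found in that of Irg1 alone among the 8. The same held for GGAANTTCC, a letter pattern of the NF-kappaB site that 0.973% of all promoters contain. The GC box GGGCGG (35.9% of all promoters) was in those of Cs, Idh2, Ogdh, Dlst, Fh1 and Mdh2, and the cyclic AMP response element TGACGTCA (1.88%) in those of Ogdh and Mdh2. CCAAT (37.9%) was in those of Cs, Idh2, Ogdh, Fh1 and Irg1. Matching letters are a description and not evidence of binding. The promoters of Irg1 and Fh1, the members with the widest ranges of level, and of Mdh2, a member with little change, are shown 5′ to 3′. Capitals mark TATAAA and GGAANTTCC in Irg1 (chr14:103046762-103047061, plus strand), GGGCGG and CCAAT in Fh1 (chr1:175625586-175625885, minus strand), and GGGCGG and TGACGTCA in Mdh2 (chr5:135778399-135778698, plus strand), each on either strand.
Irg1: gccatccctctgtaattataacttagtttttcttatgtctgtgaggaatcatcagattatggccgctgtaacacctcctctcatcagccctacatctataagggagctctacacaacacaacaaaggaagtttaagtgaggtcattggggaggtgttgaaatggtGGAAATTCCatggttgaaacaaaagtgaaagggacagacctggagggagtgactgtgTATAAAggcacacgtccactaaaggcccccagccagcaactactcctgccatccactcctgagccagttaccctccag
Fh1: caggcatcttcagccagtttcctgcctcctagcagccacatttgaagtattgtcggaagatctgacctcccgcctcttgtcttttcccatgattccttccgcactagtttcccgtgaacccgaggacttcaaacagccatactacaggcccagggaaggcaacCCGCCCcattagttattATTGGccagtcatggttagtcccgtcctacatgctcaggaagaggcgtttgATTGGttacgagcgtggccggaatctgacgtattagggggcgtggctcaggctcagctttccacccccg
Mdh2: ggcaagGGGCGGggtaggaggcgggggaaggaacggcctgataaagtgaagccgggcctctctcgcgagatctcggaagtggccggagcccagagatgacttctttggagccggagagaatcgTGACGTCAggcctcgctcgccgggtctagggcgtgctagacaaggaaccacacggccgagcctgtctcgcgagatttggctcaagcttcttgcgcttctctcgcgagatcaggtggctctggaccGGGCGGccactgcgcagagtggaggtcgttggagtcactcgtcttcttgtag

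**Figure D1:**
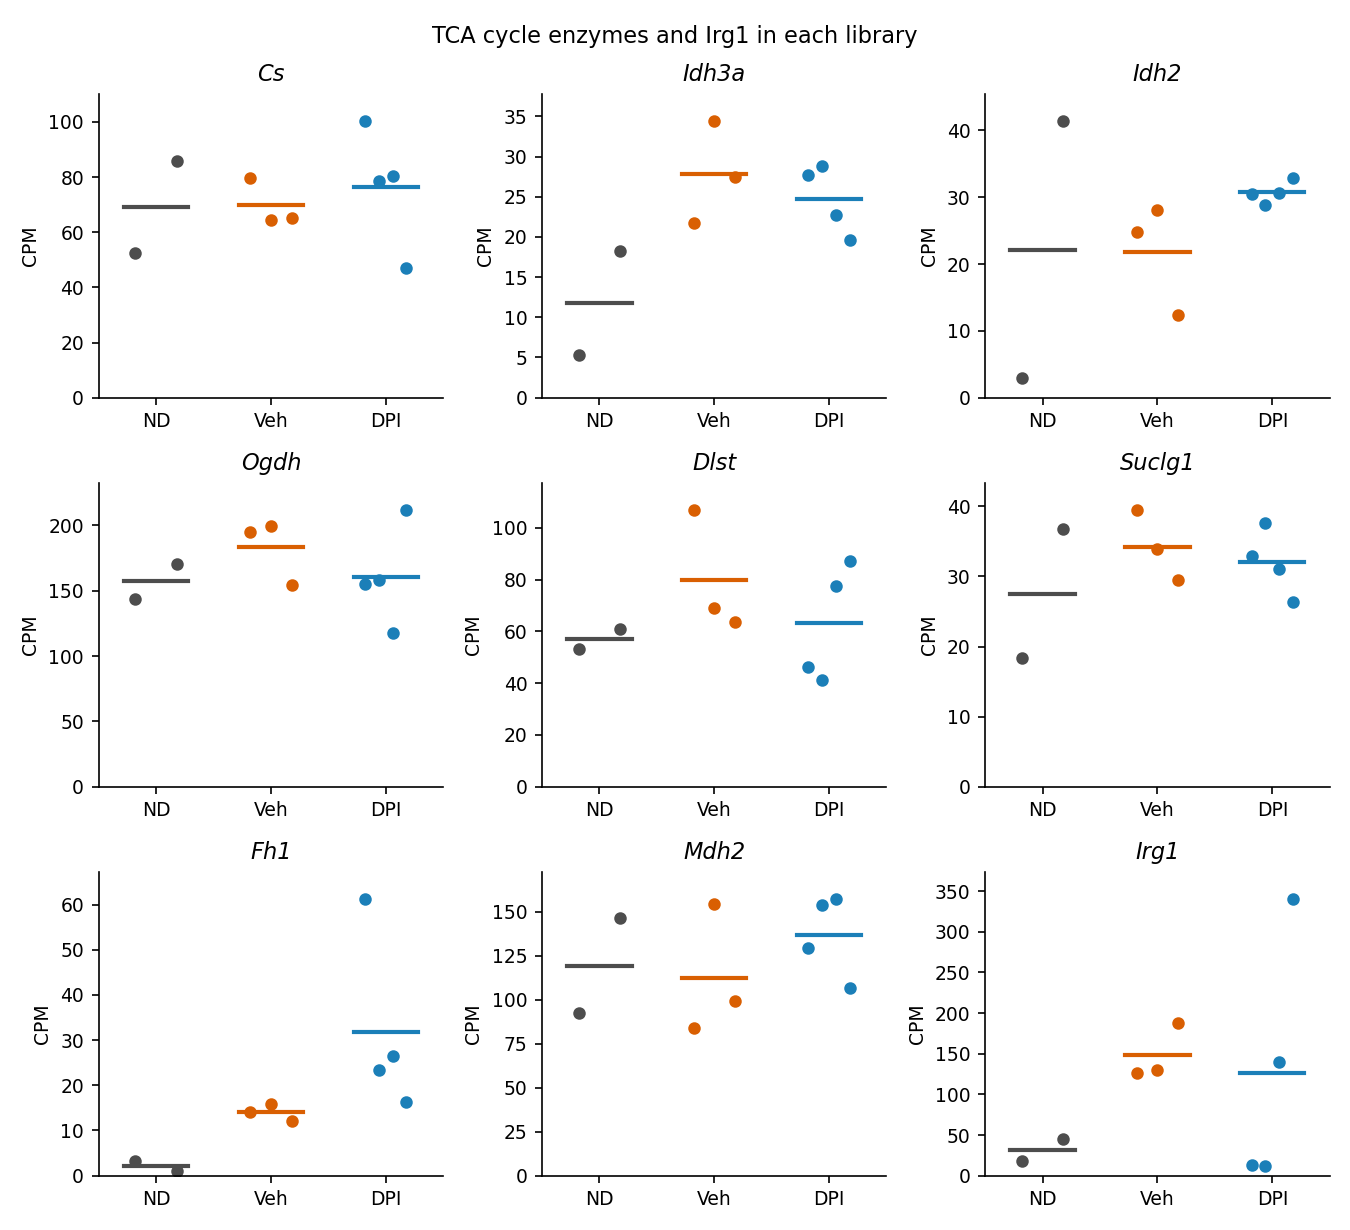
Normalized expression in CPM (each vertical axis starts at 0) of the 9 genes in ND, Veh and DPI, with 1 point per library and a bar at the group mean. Fh1 rises from 0.932 to 3.27 CPM in ND to 12.1 to 15.8 CPM in Veh and 16.2 to 61.2 CPM in DPI without overlap, and Irg1 in DPI falls at 11.5 and 12.6 CPM or at 140.1 and 340.1 CPM.

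The clearest change among the 9 genes was in Fh1, which encodes fumarase, the enzyme that hydrates fumarate to malate. Its level was 3.27 and 0.932 CPM in ND, 14.2, 15.8 and 12.1 CPM in Veh, and 61.2, 23.4, 26.5 and 16.2 CPM in DPI. The values of the 3 groups did not overlap, in the order ND, Veh and DPI. With so few libraries such separation is common, as every Veh library lay above every ND library in 15% of all genes tested and below in 12.5%, and every DPI library above every Veh library in 3.38% and below in 2.48%. For DPI and ND the shares were 11.7% and 8.49%. The ND values rest on 18 and 5 counts, whose exact 95% Poisson intervals are 1.94 to 5.17 CPM and 0.303 to 2.18 CPM, both below the lowest interval of any HFD library, which begins at 8.97 CPM. Between Veh and DPI the intervals did overlap, since that of Veh replicate 2 was 12.6 to 19.4 CPM and that of DPI replicate 4 was 13.8 to 18.9 CPM. Mean levels were 2.10 ± 1.66 CPM (SD, n = 2), 14.0 ± 1.82 CPM (SD, n = 3) and 31.8 ± 20.1 CPM (SD, n = 4). The log2 fold change of Veh over ND was 2.73 ± 0.74 (SE; 95% interval 1.13 to 4.32), that is 6.61-fold, with an unadjusted p of 0.00269 and an adjusted p of 0.182 by edgeR's quasi-likelihood test. The estimate stayed between 2.12 and 3.90 when any 1 library was left out, 3.90 without ND replicate 1 and 2.12 without ND replicate 2. DPI over Veh gave 1.19 ± 0.55 (SE; interval 0.003 to 2.37), that is 2.27-fold, with an unadjusted p of 0.0495 and an adjusted p of 0.999. This value leaned on DPI replicate 1, without which it was 0.65 with an unadjusted p of 0.267. The call was also lost without Veh replicate 1, 2 or 3 (unadjusted p 0.101, 0.0808 and 0.128) and without DPI replicate 2 or 3 (0.0516 and 0.0608). DPI over ND gave 3.91 ± 0.77 (SE), that is 15-fold, with an unadjusted p of 0.00018 and an adjusted p of 0.0952, the 19th smallest p of all genes tested.

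The other cycle enzymes differed less between Veh and ND. A gene was counted as called by the study's rule at an unadjusted p under 0.05 with at least a 2-fold change, and separately at an adjusted p under 0.05. In Veh against ND, 2 of the 9 members were called by the first rule, Fh1 and Idh3a, both higher in Veh, where the rule called 11.7% of all genes tested. By the adjusted p, 0 of the 9 were called by edgeR's quasi-likelihood test, against 0.0614% of all genes, and 2 had an unadjusted p under 0.05. DESeq2 and edgeR's likelihood ratio test each called 1, Fh1, at adjusted p of 0.0161 and 0.0277. The median log2 fold change over the 8 TCA cycle enzymes was 0.27, beside 0.03 over all genes.

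Idh3a encodes the catalytic subunit of the NAD-dependent isocitrate dehydrogenase, the step that is regulated by energy charge. It stood at 5.27 and 18.3 CPM in ND, 21.7, 34.4 and 27.5 CPM in Veh, and 27.7, 28.8, 22.8 and 19.6 CPM in DPI. Every library from HFD mice lay above both ND libraries. Of all genes tested, 15% had every Veh library above every ND library and 11.7% every DPI library above every ND library. For Idh3a the exact 95% Poisson intervals of ND replicate 2 (14.8 to 22.3 CPM), Veh replicate 1 (17.6 to 26.5 CPM) and DPI replicate 4 (16.9 to 22.5 CPM) overlapped. The log2 fold change of Veh over ND was 1.24 ± 0.56 (SE; 95% interval 0.04 to 2.45), with an unadjusted p of 0.0445 and an adjusted p of 0.373. It leaned on the low value in ND replicate 1, without which the log2 fold change of Idh3a was 0.62 with an unadjusted p of 0.282. The call was also lost without Veh replicate 2 (1.06, unadjusted p 0.114), Veh replicate 3 (p 0.0632), and DPI replicate 1, 2 or 3 (p 0.0561, 0.0505 and 0.0578). DPI over Veh differed by -0.18 (interval -1.14 to 0.79), so that a change by DPI of more than 1.14 in log2 units in either direction lies outside the interval.

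Idh2 encodes the NADP-dependent isocitrate dehydrogenase of mitochondria, a source of NADPH. Its level was 2.91 and 41.4 CPM in ND, 24.8, 28.1 and 12.4 CPM in Veh, and 30.5, 28.8, 30.6 and 32.9 CPM in DPI. The ND libraries were the lowest and the highest of all 9, and rest on 16 and 222 counts. All 4 DPI libraries lay above all 3 Veh libraries, as in 3.38% of all genes, but the log2 fold change was 0.50 ± 0.63 (SE; interval -0.85 to 1.84), with an unadjusted p of 0.442. For Veh over ND the value was -0.02 (interval -1.62 to 1.57), and the choice of ND library decided it. It was 2.93 without ND replicate 2, with an adjusted p of 0.0311, and -0.91 without ND replicate 1.

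Ogdh and Dlst encode the first and second components of the 2-oxoglutarate dehydrogenase complex, which forms succinyl-CoA. Ogdh stood at 143.7 and 170.8 CPM in ND, 194.9, 199.8 and 154.7 CPM in Veh, and 155.3, 158.4, 117.3 and 211.7 CPM in DPI. The groups of Ogdh overlapped, with log2 fold changes of 0.22 (95% interval -0.46 to 0.90) for Veh over ND and -0.19 (-0.75 to 0.38) for DPI over Veh. Dlst stood at 53.3 and 60.8 CPM in ND, 106.9, 69.0 and 63.6 CPM in Veh, and 46.5, 41.4, 77.5 and 87.1 CPM in DPI. Dlst was higher in every Veh library than in either ND library, as were 15% of all genes, with a log2 fold change of 0.48 ± 0.40 (SE) and an unadjusted p of 0.251. Within DPI, replicates 1 and 2 were the lowest of all libraries for Dlst and replicates 3 and 4 lay within the range of Veh. DPI over Veh was -0.34 (interval -1.05 to 0.38) for Dlst.

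Cs, Suclg1 and Mdh2 showed no group that stood clear of the others. Cs encodes citrate synthase, and had 52.4 and 85.9 CPM in ND, 79.6, 64.3 and 65.3 CPM in Veh, and 100.3, 78.7, 80.2 and 46.9 CPM in DPI. Suclg1 encodes the alpha subunit of succinyl-CoA synthetase, which yields a nucleoside triphosphate, and had 18.4 and 36.7 CPM in ND, 39.5, 33.9 and 29.5 CPM in Veh, and 32.9, 37.7, 31.1 and 26.4 CPM in DPI. Mdh2 encodes mitochondrial malate dehydrogenase, and had 92.4 and 146.7 CPM in ND, 84.2, 154.3 and 99.2 CPM in Veh, and 129.5, 153.7, 157.3 and 106.7 CPM in DPI. In each of these genes the ND libraries alone spanned a 1.59- to 2.00-fold range. The 95% intervals of the log2 fold change of Veh over ND were -0.80 to 0.82 for Cs, -0.59 to 1.22 for Suclg1 and -0.85 to 0.68 for Mdh2. Those of DPI over Veh were -0.54 to 0.81, -0.85 to 0.65 and -0.36 to 0.92 in the same order. A 2-fold change of Cs or Mdh2 thus lay outside the interval in both comparisons, whereas for Suclg1 a 2-fold rise on HFD did not.

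**Figure D2:**
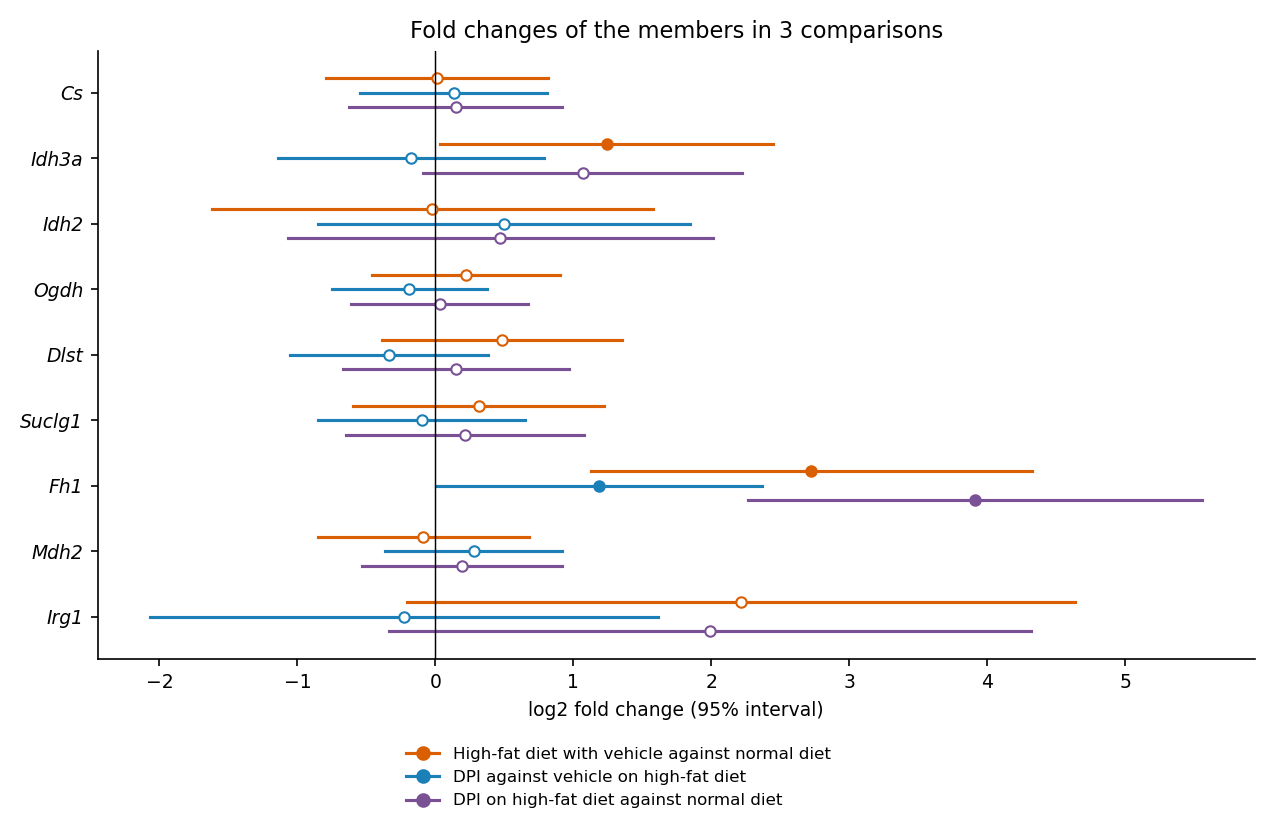
Log2 fold changes of the 9 genes in the 3 comparisons with their 95% intervals from edgeR, filled where the gene passed an unadjusted p under 0.05 with at least a 2-fold change. Fh1 is filled in all 3 and Idh3a in Veh over ND alone, while the intervals of Irg1 are the widest, from -2.07 to 1.61 for DPI over Veh.

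In DPI against Veh, 1 of the 9 members, Fh1, was called by the study's rule, where 2.84% of all genes were called. By the adjusted p, 0 members and 0% of all genes were called by edgeR's quasi-likelihood test, although 1 member and 470 of all genes had an unadjusted p under 0.05. DESeq2 and the likelihood ratio test called 0 members and 2 and 1 of all genes. In DPI against ND, 1 member was called by the study's rule, again Fh1, where 9.29% of all genes were called, and 0 by the adjusted p in edgeR's quasi-likelihood test, against 0.00878% of all genes. DESeq2 and the likelihood ratio test each called 1 member there, Fh1, at adjusted p of 4.82e-05 and 0.00053. These comparisons share libraries with each other and are given side by side. The median over the 8 cycle enzymes was 0.02 for DPI over Veh and 0.20 for DPI over ND, beside 0.04 and 0.04 over all genes. Summed over the 8 cycle enzymes, the libraries held 371.5 and 561.5 CPM in ND, 565.7, 599.5 and 464.3 CPM in Veh, and 583.8, 550.9, 543.3 and 547.3 CPM in DPI. The sum was lowest in ND replicate 1, and the DPI libraries lay within the range of Veh.

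Irg1 encodes the aconitate decarboxylase that makes itaconate, and is a well known endotoxin-induced gene of macrophages. Its level was 18.2 and 45.5 CPM in ND, 126.4, 129.7 and 187.8 CPM in Veh, and 12.6, 11.5, 140.1 and 340.1 CPM in DPI. All 3 Veh libraries stood above both ND libraries, as they did in 15% of all genes. The DPI libraries fell on both sides of Veh and ND, with 2 below every ND library, 1 inside the range of Veh and 1 above every other library. The highest DPI library exceeded the lowest 29.5-fold, against 1.49-fold among the Veh libraries and 2.5-fold in ND. The lowest of these levels of Irg1 rests on 34 counts, with an exact 95% Poisson interval of 7.98 to 16.1 CPM that covers counting error only.

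The log2 fold change of Irg1 for Veh over ND was 2.22 ± 1.12 (SE; 95% interval -0.21 to 4.64), that is 4.64-fold. It did not pass the test, with an unadjusted p of 0.0697 and an adjusted p of 0.419. The fit draws its spread from all 9 libraries, and with ND and Veh alone the unadjusted p was 0.00139 and the adjusted p 0.233 at the same fold change. Over the other settings tried the unadjusted p ran from 0.021 to 0.226. For DPI over Veh the log2 fold change of Irg1 was -0.23 ± 0.85 (SE; interval -2.07 to 1.61), with an unadjusted p of 0.795, so that neither a 2-fold rise nor a 2-fold fall is outside the interval. Leaving out DPI replicate 1 or 2 turned it to 0.15 in each case, and leaving out DPI replicate 4 gave -1.43 with an unadjusted p of 0.0981. For DPI over ND it was 1.99 ± 1.08 (SE), with an unadjusted p of 0.0877, and 0.78 without DPI replicate 4.

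The summed markers of neutrophils varied across the libraries together with Irg1, although the sort took Gr1low cells, but not every marker did. The 12 measured genes of that list summed to 1479 and 3403 CPM in ND, 2621, 3488 and 4056 CPM in Veh, and 1178, 971.5, 4010 and 5776 CPM in DPI. As with Irg1, DPI replicates 1 and 2 were the lowest and DPI replicate 4 the highest. S100a8, a calcium-binding protein abundant in neutrophils, stood at 157.3, 187.9, 1184 and 1896 CPM in the 4 DPI libraries. S100a9 had 149.9, 221.2, 1227 and 2352 CPM there, Retnlg 24.05, 53.93, 396.4 and 361.5 CPM, and Cxcr2 75.82, 93.62, 128.8 and 246.3 CPM. The granule genes were mixed, since Mmp9 had 2.14, 15.9, 47.1 and 70.3 CPM in DPI and Ltf 55.3, 52.6, 92.3 and 87.0 CPM, whereas Camp had 42.9, 29.5, 55.4 and 23.2 CPM and Mmp8 288.6, 73.3, 193.8 and 157.3 CPM. Elane and Mpo, also of this list, were at 0 counts in ND replicate 1. In DPI they stood at 35.3, 28.2, 62.6 and 7.74 CPM (Elane) and 40.8, 7.12, 59.9 and 3.46 CPM (Mpo), lowest in DPI replicate 4, where Irg1 was highest. Of the 12, 1 was called higher and 2 lower by the study's rule in Veh against ND, where 7.03% of all genes were called higher and 4.63% lower. In DPI against Veh 3 were called higher, the granule genes Camp, Ngp and Ltf, and 0 lower, beside 1.5% and 1.34% of all genes. Set against this sum, Irg1 amounted to 12.3 and 13.4 CPM per 1000 CPM of neutrophil markers in ND, 48.2, 37.2 and 46.3 in Veh, and 10.7, 11.9, 34.9 and 58.9 in DPI. ND and Veh remained apart on this scale, and the DPI libraries remained split. The B cell and dendritic cell sums, given below, also varied with Irg1 in part. The part of neutrophils or of these cells in the level of Irg1 was not tested.

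**Figure D3:**
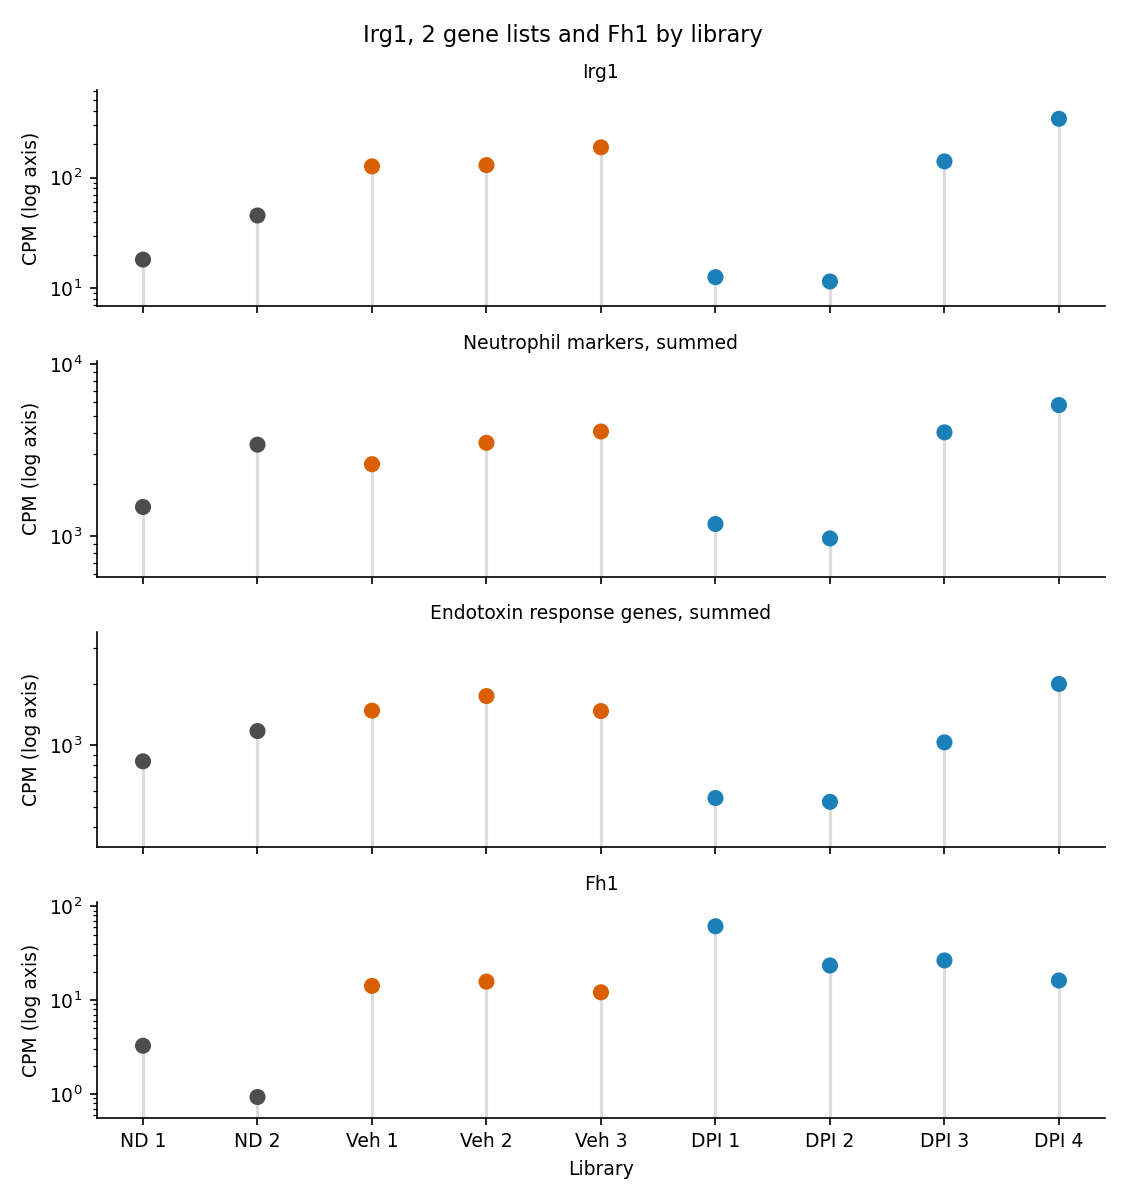
Levels by library on logarithmic CPM axes of Irg1, the summed neutrophil markers, the summed endotoxin response genes and Fh1, with ND in grey, Veh in orange and DPI in blue. DPI replicates 1 and 2 are the lowest libraries in the upper 3 panels (11.5 and 12.6 CPM for Irg1) and hold 23.4 CPM or more of Fh1.

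The 12 listed genes of the endotoxin response summed to 836.3 and 1175 CPM in ND, 1478, 1742 and 1471 CPM in Veh, and 553.1, 530.2, 1035 and 1996 CPM in DPI. This sum was led by Il1b, and the other 11 genes summed to 631.4 and 449.6 CPM in ND, 761.9, 480.5 and 741.9 CPM in Veh, and 357.7, 362.6, 413.2 and 562.2 CPM in DPI. Irf1, a transcription factor of the interferon response, stood at 114.0, 102.4, 96.7 and 113.1 CPM in DPI. Of the 10 that could be tested, 8 had a positive and 2 a negative log2 fold change in Veh against ND (median 0.76), and 2 a positive and 8 a negative one in DPI against Veh (median -0.52). By the study's rule 1 was called higher and 1 lower on HFD, and 0 higher and 1 lower with DPI. Of all genes the rule called 7.03% higher and 4.63% lower on HFD, and 1.5% and 1.34% with DPI. Il1b, which encodes the cytokine IL-1beta, stood at 204.9 and 725.7 CPM in ND, 716, 1262 and 728.8 CPM in Veh, and 195.4, 167.6, 621.9 and 1434 CPM in DPI. Marcksl1 was called higher on HFD (log2 fold change 1.28, unadjusted p 0.0346), a call lost without ND replicate 1 or 2 or Veh replicate 2 (unadjusted p 0.0753, 0.0822 and 0.101), and Saa3, an acute phase protein, was called lower (-1.62, unadjusted p 0.00345, adjusted p 0.201). Nfkbiz, a nuclear regulator of NF-kappaB target genes, was the gene called lower with DPI, at 288.2, 154.0 and 287.8 CPM in Veh and 92.8, 95.3, 88.4 and 179.1 CPM in DPI. Its log2 fold change was -1.09 with an unadjusted p of 0.0058 and an adjusted p of 0.999, and came to less than 2-fold without Veh replicate 1 or 3 or DPI replicate 3 (-0.96, -0.96 and -0.99). Ptgs2, the inducible cyclooxygenase, was lower in every DPI library than in any Veh library, as in 2.48% of all genes, but by less than 2-fold (-0.94, unadjusted p 0.0323). Nos2, the inducible nitric oxide synthase, reached 3.46 CPM in ND replicate 1 and at most 0.306 CPM elsewhere.

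The genes whose log2 CPM was most like that of Irg1 over the 9 libraries, among 11384 searched, were Il1r2 (Pearson r 0.977), Cxcl2 (0.976), Ets2 (0.966), Thbs1 (0.965) and Spib (0.963). Il1r2 encodes a decoy receptor for IL-1 and Cxcl2 a chemokine that draws neutrophils. Cxcl2 stood at 80.7 and 190.1 CPM in ND, 381.3, 463.7 and 501.9 CPM in Veh, and 53.6, 35.6, 292 and 581.5 CPM in DPI. The order of its DPI libraries was that of Irg1, with replicates 1 and 2 the lowest. For the mean of the 8 cycle enzymes, each standardized, the most similar genes were Nudt8 (0.989), Gimap5 (0.977), Renbp (0.973), Tusc3 (0.973) and Fam3c (0.970). Their Spearman rho was 0.95, 0.867, 0.75, 0.633 and 0.95 in the same order. ND replicate 1 held the lowest level of all 5, from 0 CPM for Nudt8 to 4.36 CPM for Renbp, and without it the Pearson r lay between 0.78 and 0.918, against 0.959 to 0.984 for the 5 genes most like Irg1. Among the members themselves, the r of Idh3a with Idh2 was 0.783, of Idh3a with Suclg1 0.799 and of Idh2 with Suclg1 0.817. These values rested on ND replicate 1, the lowest library of all 3 genes, without which they were -0.412, 0.09 and 0.229. Irg1 was closest to Dlst (r 0.843, and 0.837 without ND replicate 1) and had an r of 0.003 with Fh1. These values are descriptions over 9 points that share libraries, groups and depths.

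Per kilobase of annotated exon, the order of the members in Veh was Irg1 (56.4 ± 13.2 CPM per kb, SD, n = 3), Ogdh (33.6 ± 4.54), Mdh2 (31.6 ± 10.4), Cs (12.1 ± 1.48), Idh2 (8.41 ± 3.20), Dlst (8.35 ± 2.47), Suclg1 (7.42 ± 1.09), Idh3a (5.49 ± 1.25) and Fh1 (4.14 ± 0.54). The ranges of Ogdh and Mdh2 overlapped each other, as did those of Cs and Dlst, of Idh2, Dlst, Suclg1 and Idh3a among themselves, and of Idh3a and Fh1. In ND, Irg1 ranked 3 of 9 at 12.1 ± 7.36 CPM per kb and Fh1 last at 0.62 ± 0.49 CPM per kb (SD, n = 2). The range of Irg1 there, 6.93 to 17.3 CPM per kb, overlapped those of Cs, Idh2 and Suclg1. In DPI, Fh1 ranked 6 of 9 at 9.38 ± 5.91 CPM per kb (SD, n = 4), while Irg1 spanned 4.40 to 130.0 CPM per kb around a mean of 48.1 ± 59.1 CPM per kb and is given no rank. With the median length of coding transcripts in place of all exons, Mdh2 came first in all 3 groups, Irg1 ranked 7 of 9 in ND and 2 of 9 in Veh, and Fh1 came last in ND and Veh and ranked 8 of 9 in DPI.

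A further 9 subunits of the cycle were examined beside the members, and no difference between these and the members was tested. In Veh against ND 8 of the 9 had a negative log2 fold change (median -0.42, beside 0.03 over all genes, of which 51.5% were positive), and of the 9, 0 had an unadjusted p under 0.05 in edgeR's quasi-likelihood test and 0 were called by the study's rule. In DPI against Veh 7 of the 9 were positive (median 0.38), beside a median of 0.04 and 53.1% positive over all genes. Of these 9, 2 had an unadjusted p under 0.05 and 1 was called by the study's rule, which called 2.84% of all genes. These comparisons share the Veh libraries.

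Idh3b, the beta subunit of the NAD-dependent isocitrate dehydrogenase, was that gene. It stood at 74.7 and 83.1 CPM in ND, 39.2, 65.0 and 46.3 CPM in Veh, and 104.8, 131.9, 106.7 and 85.0 CPM in DPI. Every DPI library exceeded every other library. Of all genes, 3.38% had every DPI library above every Veh library and 11.7% above every ND library. The log2 fold change of Idh3b over Veh was 1.09, with an unadjusted p of 0.00212 and an adjusted p of 0.999. The fold change fell just under 2-fold without Veh replicate 1 (0.93) or DPI replicate 2 (0.97). Its partner subunits behaved differently in size, as Idh3g had 0.41 and Idh3a -0.18 in the same comparison, and the difference between the subunits was not tested. Dld, the dihydrolipoamide dehydrogenase shared by the 2-oxoglutarate and pyruvate dehydrogenase complexes, had 36.4 and 24.4 CPM in ND, 21.5, 14.1 and 17.1 CPM in Veh, and 32.7, 30.9, 30.4 and 32.7 CPM in DPI. DPI over Veh was 0.85 for Dld (unadjusted p 0.0319, adjusted p 0.999), with every DPI library above every Veh library, as in 3.38% of all genes. The 4 subunits of succinate dehydrogenase had unadjusted p of 0.146 (Sdha), 0.389 (Sdhb), 0.748 (Sdhc) and 0.646 (Sdhd) in this comparison.

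**Figure D4:**
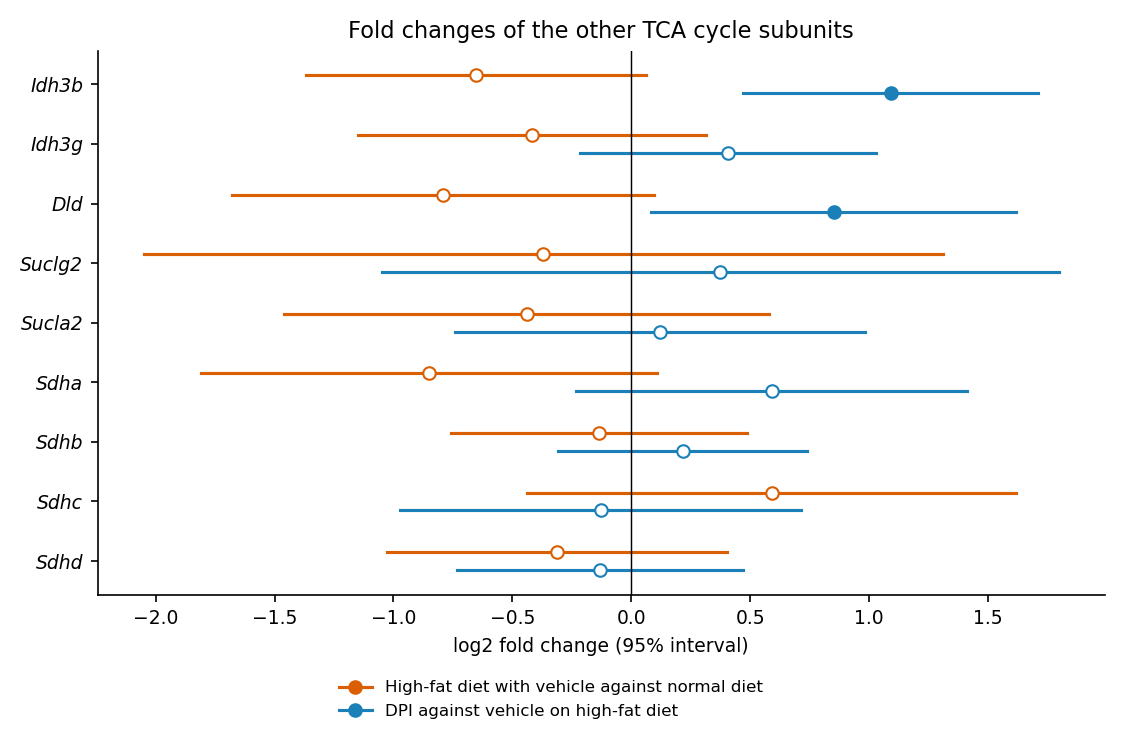
Log2 fold changes with 95% intervals of 9 further cycle subunits for Veh over ND and DPI over Veh, filled where the unadjusted p was under 0.05. Idh3b (1.09) and Dld (0.85), both for DPI over Veh, are the filled points.

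Of the genes that feed pyruvate into the cycle or control its entry, 12 of 14 were tested. By the study's rule 1 was called higher and 1 lower in Veh against ND, beside 7.03% and 4.63% of all genes, and 0 in DPI against Veh, beside 2.84%. Pdp1, a phosphatase that activates pyruvate dehydrogenase, was at 0 counts in both ND libraries and in Veh replicate 1 and at 2.54 and 4.21 CPM in the other Veh libraries. With ND set at the mean limit of 3 counts per library, Pdp1 was on average at least 4.07-fold higher in Veh than in ND. Its unadjusted p was 0.0198, and 0.0553 and 0.0536 without ND replicate 1 and 2. Pdp2, the second such phosphatase, fell from 18.6 and 16.6 CPM in ND to 7.09, 6.52 and 2.48 CPM in Veh (log2 fold change -1.71, unadjusted p 0.0293, adjusted p 0.341), and this call was lost without ND replicate 1 or Veh replicate 3 (unadjusted p 0.0709 and 0.103). Pdhb, the beta subunit of the first component of pyruvate dehydrogenase, did not pass the test, at 37.1 and 11.4 CPM in ND, 104.2, 41.5 and 29.5 CPM in Veh and 19.1 to 62.5 CPM in DPI (Veh over ND 1.27, unadjusted p 0.078). Among 13 cytosolic and shuttle partners, 12 were tested, and against the same shares of all genes 2 were called higher and 1 lower on HFD, with 0 called with DPI. Idh1, the cytosolic isocitrate dehydrogenase, was the lower gene, at 68.4 and 185.3 CPM in ND, 47.7, 39.5 and 36.1 CPM in Veh, and 124.3, 83.4, 33.4 and 36.3 CPM in DPI. Its log2 fold change on HFD was -1.63 (unadjusted p 0.0109, adjusted p 0.278), and -0.71 without ND replicate 2. Got1, the cytosolic aspartate aminotransferase, was called higher (1.93, unadjusted p 0.0375), with 1.08 (p 0.147) without ND replicate 2 and 4.73 without ND replicate 1. The call of Got1 was also lost without Veh replicate 2 or 3 (p 0.0933 and 0.0527). Slc25a1, the mitochondrial citrate carrier, was higher in every Veh library (24.6, 31.7 and 38.9 CPM) than in ND (16.7 and 7.64 CPM) or in DPI (16.5, 16.3, 15.6 and 20.3 CPM). Of all genes, 15% had every Veh library above every ND library and 2.48% had every DPI library below every Veh library. The log2 fold changes of Slc25a1 were 1.38 for Veh over ND (unadjusted p 0.0185) and -0.89 for DPI over Veh (unadjusted p 0.048), with adjusted p of 0.311 and 0.999. The first fell below 2-fold without ND replicate 2 (0.95) and lost its call without Veh replicate 3 (1.26, unadjusted p 0.0525).

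Markers of other liver cells differed between the groups beside these results. In Veh against ND, 4 of 8 sinusoidal endothelial genes were called lower and 1 higher, and 3 of 8 tested hepatocyte genes were called lower and 0 higher, where 4.63% of all genes were called lower and 7.03% higher. Of the 8 endothelial genes, 3 were called higher in DPI against Veh (Stab2, Clec4g and Dnase1l3) and 0 lower, beside 1.5% and 1.34% of all genes, and 0 of the hepatocyte genes were called. Stab2, a receptor of sinusoidal endothelium, stood at 38.4 and 51.5 CPM in ND, 0, 0.181 and 1.98 CPM in Veh, and 37.8, 23.4, 0 and 1.73 CPM in DPI. DPI replicates 1 and 2 were thus high for Stab2 and low for Irg1, and they were the highest of all libraries for C1qa and C1qb. The endothelial sum over all 8 genes, 497.5 and 548.3 CPM in ND, 388.1 to 503.7 CPM in Veh and 293.2 to 538.2 CPM in DPI, was led by the Fc receptor gene Fcgr2b. The other 7 genes summed to 208.6 and 298.5 CPM in ND, 22.4, 15.4 and 30.7 CPM in Veh, and 226.4, 111.9, 10.8 and 41.0 CPM in DPI. The Veh libraries thus lay below both ND libraries on this sum, although Fh1 was lowest in ND. DPI replicate 1, the highest library for Fh1, was the highest of the DPI libraries, and DPI replicate 3, with 26.5 CPM of Fh1, was the lowest. The hepatocyte sum was 307.1 and 494.0 CPM in ND, 156.7 to 203.9 CPM in Veh and 195.9 to 344.7 CPM in DPI. Without Trf, the transferrin gene that led it, the sum was 122.9 and 281.9 CPM in ND, 17.6 to 72.9 CPM in Veh and 38.6 to 88.5 CPM in DPI. The 4 measured B cell genes summed to 14.9 and 65.4 CPM in ND, 93.1 to 174.6 CPM in Veh and 15.6 to 396.6 CPM in DPI, again lowest in DPI replicates 1 and 2 within that group. The 7 dendritic cell genes summed to 55.1 and 107.8 CPM in ND, 192.9 to 309.7 CPM in Veh, and 122.3, 138.1, 255.9 and 408 CPM in DPI. Ccr7 led this sum, with 33.9, 73.95, 121.6 and 319.1 CPM in DPI. Without Ccr7 the sum was 55.1 and 61.15 CPM in ND, 33.69 to 78.48 CPM in Veh and 64.11 to 134.3 CPM in DPI. The 8 T and NK cell genes summed to 161.9, 315.1, 238.5 and 186.7 CPM in DPI. Of 5 tested eosinophil genes, 3 were called higher and 0 lower in DPI against Veh, where 1.5% and 1.34% of all genes were, and Prg2 had 79.3, 89.9, 0.371 and 47.7 CPM in DPI and at most 1.81 CPM elsewhere. The part of these cells in the levels of the 9 genes was not tested.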

How the data were processed

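The 9 mouse liver macrophage libraries (2 ND, 3 Veh and 4 DPI) were grouped by the sample labels. Reads had been aligned to mm10, and the authors deposited whole-number counts of each gene with no scaling applied. The paper names bowtie2 and RSEM, and the submitters' processing notes name TopHat2 and edgeR. Whether counting used strand was not given in the sources used here. Tests were two-sided quasi-likelihood tests in edgeR 4.0.16 (R 4.3.3), with filterByExpr by group, TMM and 1 fit of all 3 groups (6 residual degrees of freedom, biological coefficient of variation 0.65), adjusted by Benjamini-Hochberg over 11393 genes. Log2 CPM used a prior count of 2. Totals were 3534325 to 15585775 counts. The test was checked on simulated data. The members and the gene lists were chosen with earlier results of these data known. All members were named, and 1 other gene of the cycle list is not reported here. From each other list of cycle, pyruvate, shuttle and endotoxin genes, those called and up to 3 with the smallest unadjusted p in either Veh against ND or DPI against Veh were named, with markers where they moved with a member. Idh3g, Il1b, Nos2 and the succinate dehydrogenase subunits were named after their values were seen. So were the granule genes, Elane, Mpo, S100a9, Retnlg, Cxcr2, Cd68, Emr1, C1qa, C1qb, Ccr7, Irf1, Fcgr2b and Trf. List sums without their leading gene and correlations without ND replicate 1 were likewise added after seeing the data. Alternatives were RLE or library size scaling, removal of Rn45s, thinning, other filters, DESeq2 1.42.0, the likelihood ratio test, fits of 2 groups, the replicate number as a block, and each library left out. Transcripts were compared with BLAST+ 2.17.0+, and promoters are from RefSeq (GRCm38.p6).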

Additional observations from a re-analysis of the deposited data

How the results depend on the processing

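Only 2 ND libraries were analysed here, Fh1 rests on 18 and 5 counts there, and a fit without either one assumes that the lone ND library varies like the other groups. Of the log2 fold changes of the 9 genes, 202 kept direction and side of the threshold when 1 library was left out and 237 under other settings, 22 and 16 changed sign, 12 and 5 lost and 7 and 9 gained the threshold. The Veh over ND and DPI over ND changes of Fh1 kept their call wherever it was tested. At least 10 counts in every library removes Fh1. The causes of the changes below were not tested.

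Members called by the study's rule in Veh against ND fell from 2 to 1 with library size scaling or thinning and ranged from 1 to 3 with 1 library left out; by the adjusted p they were 0, and 1 with DESeq2 or the likelihood ratio test, and 0 to 2 with 1 library left out. In DPI against Veh they went from 1 to 0 with RLE factors (Fh1 p 0.0507), without Rn45s (p 0.0521) or with at least 10 counts in every library, and ranged from 0 to 1 with 1 library left out. Fh1 lost that call without Veh replicate 1, 2 or 3 or DPI replicate 1, 2 or 3. In DPI against ND they went from 1 to 2 without a low count filter and ranged from 1 to 3 with 1 library left out; by the adjusted p they were 0, and 1 without the filter, with DESeq2 or with the likelihood ratio test, and 0 to 2 with 1 library left out. All genes called by the adjusted p in Veh against ND were 7, but 52 without the filter, 312 with DESeq2, 280 with the likelihood ratio test and 1 to 568 with 1 library left out. In DPI against ND they were 1, but 22, 219, 186 and 1 to 572 in the same order. In DPI against Veh they were 0, 2 with DESeq2 and 1 with the likelihood ratio test.

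Library size scaling moved the median of all genes from 0.03 to -0.26 (Veh over ND), from 0.04 to 0.12 (DPI over Veh) and from 0.04 to -0.17 (DPI over ND). With it the log2 fold change of Veh over ND was -0.268 for Cs and -0.057 for Ogdh, and that of DPI over ND was -0.065 for Cs, -0.174 for Ogdh, -0.041 for Dlst, -0.002 for Suclg1 and -0.027 for Mdh2. Cs in Veh over ND was -0.019 with RLE factors and -0.019 with DESeq2. Ogdh in DPI over ND was -0.008 with RLE factors, -0.038 after thinning and -0.007 with DESeq2.

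With 1 library left out, Veh over ND ranged from -0.293 to 0.441 for Cs, -0.912 to 2.929 for Idh2, -0.091 to 0.928 for Suclg1 and -0.382 to 0.318 for Mdh2. DPI over Veh ranged from -0.026 to 0.311 for Cs, -0.335 to 0.005 for Idh3a, -0.207 to 0.005 for Suclg1 and -1.432 to 0.154 for Irg1. DPI over ND ranged from -0.156 to 0.579 for Cs, -0.42 to 3.421 for Idh2, -0.131 to 0.19 for Ogdh, -0.05 to 0.339 for Dlst, -0.191 to 0.828 for Suclg1 and -0.092 to 0.595 for Mdh2.

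Replicate numbers did not pair the libraries, since same-numbered libraries had correlations of their deviations of -0.022 to 0.084. With the replicate number as a block, members called by the study's rule were 3 in Veh against ND, 2 in DPI against Veh and 2 in DPI against ND, and 0 genes of all passed the adjusted p in any comparison. Under the block Idh2 was 0.589 in Veh over ND, Irg1 was -2.425 in DPI over Veh (unadjusted p 0.00264, adjusted p 0.678) and -0.711 in DPI over ND, and Ogdh and Dlst were -0.011 and -0.166 in DPI over ND.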
